A study of Mus musculus with 6 samples.

Results

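The genes described here are the ligands and receptors of the tumour necrosis factor (TNF) superfamily. They were chosen with earlier results of these data known. The rule went by symbol: every gene named Tnfsf or Tnfrsf with a number, together with Tnf, Lta, Ltb, Ltbr, Fas, Fasl, Cd27, Cd40, Cd40lg and Cd70. This rule found 41 of the 24421 genes in the count table, 17 ligands and 24 receptors. They were read from bulk RNA sequencing of brain cortex. All animals were C57BL/6 mice with MCAO, in which the middle cerebral artery is blocked to cause an ischaemic stroke, so the controls carried the same injury. In the control group the animals were given green fluorescent protein (GFP, 3 libraries), and in the other group NeuroD1, a proneural transcription factor (NeuroD1, 3 libraries). The series title speaks of gene therapy given intravenously, while the sources used here give neither the vector and its promoter, nor the time since the stroke, nor the animals' age or sex. Whether the numbered samples of a group are different animals is not stated, and p-values therefore reflect only how far these samples scatter, which could be technical in part.

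TNF superfamily ligands are mostly membrane proteins that act on neighbouring cells or are cut off and released, and they bind receptors with cysteine-rich outer domains. Some receptors carry a death domain and can start apoptosis or necroptosis, while others recruit TRAF adapters and switch on the transcription factor NF-kB; a few lack a signalling tail and act as decoys. In injured brain, microglia and invading leukocytes are known sources of TNF, and several receptors are also made by neurons, astrocytes and endothelial cells.

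Libraries held 7753101 to 9698795 counts with GFP and 10843273 to 13440244 with NeuroD1, so every NeuroD1 library was the deeper. Neurod1 itself was at 6.47, 3.87 and 5.43 CPM (counts brought to a common library size by TMM) in GFP replicates 1, 2 and 3 and at 48.5, 14.6 and 38.4 CPM in the NeuroD1 replicates. NeuroD1 replicate 2 stood apart, with the least Neurod1 of its group and a chi-square per gene of 93.5 and 132.8 against its group mates, where these differed from each other by 39.9. For members and signalling genes that it moves far, the value without it is given as well. By the same measure NeuroD1 replicate 3 was at 30.4 and 36.7 against GFP replicates 1 and 3, and at 39.9 against NeuroD1 replicate 1. The measure grows with library depth and NeuroD1 replicate 1 was the deepest library, so these close values do not rank nearness. Brain markers were present in every library, with summed neuronal markers of 2906 to 8187 CPM. In bulk tissue, fewer cells of a type and less RNA per cell cannot be told apart.

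Of the 41 genes, 28 had enough counts to be tested, 7 ligands and 21 receptors. In edgeR's quasi-likelihood test, adjusted by the Benjamini-Hochberg method over 14852 genes, 0 members passed, as did 0 genes in all (0%); the smallest adjusted p of a member was 0.136. By limma-voom 0 members passed as well, again against 0 (0%) of all genes. At an unadjusted edgeR p under 0.05, 9 of the 28 were higher with NeuroD1 (32.1%, against 12.5% of all tested genes) and 3 were lower (10.7%, against 11.5%). DESeq2, run as an alternative, called 4 members higher after adjustment (12.1% of the 33 it could adjust, against 4.87% of all genes) and 2 lower (6.06%, against 3.76%). Its higher calls were Tnfsf8, Tnfrsf21, Tnfrsf1b and Tnfrsf11a, and its lower calls Tnfrsf25 and Tnfsf10. These 6 were also the members whose unadjusted edgeR p stayed under 0.05 whichever library was left out. Both results come from the same counts, so their overlap is not independent support. For Tnfsf8 it is also tied to the filter on low counts, as described below.

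Without overlap between the groups were 9 members that were higher with NeuroD1 (32.1%, against 14.2% of all genes) and 3 that were lower (10.7%, against 15.3%). The median log2 fold change of the tested members was 0.62, against 0.02 over all tested genes, and it was 0.22 without NeuroD1 replicate 2. The count of 9 members higher at an unadjusted p under 0.05 became 4 without that library, 5 without GFP replicate 3 and 6 without NeuroD1 replicate 1. Without GFP replicate 3 the share of all tested genes at such a p, in either direction, also fell, from 24.0% to 12.5%. NeuroD1 replicate 2 had the highest level of 17 of the 28 members (60.7%), compared with 29% of all tested genes. Among genes higher at an unadjusted p under 0.05, that library was highest for 8 of the 9 members (88.9%) and for 66.5% of all 1851 genes. Tnfsf8 passed the filter on low counts only through the NeuroD1 libraries, so a difference in it was built into its being tested. It is counted among the 9 higher members all the same.

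**Figure D1:**
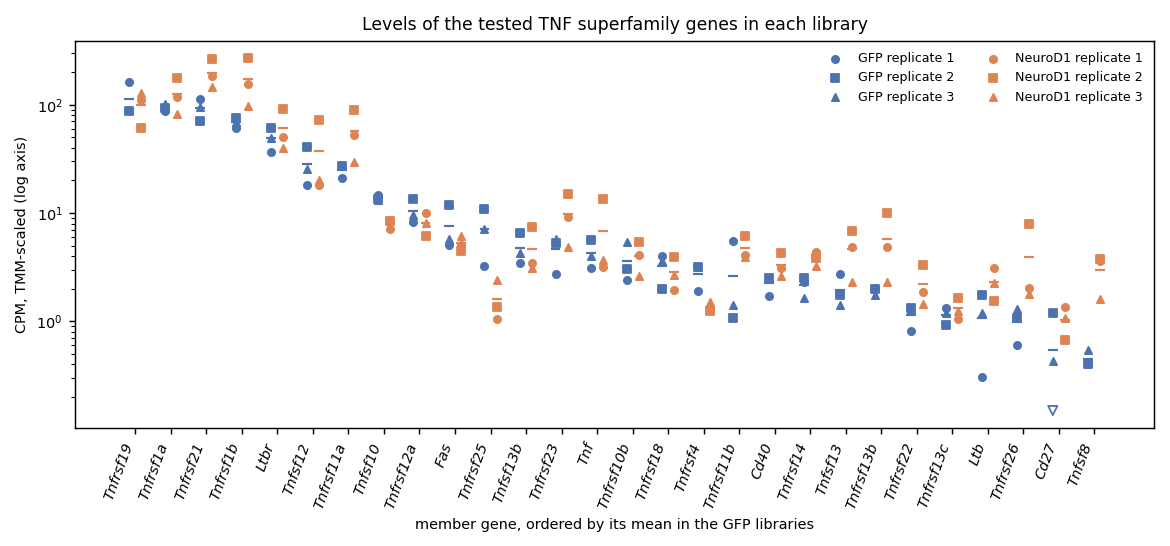
Level of each of the 28 tested members in each of the 6 libraries, as TMM-scaled CPM on a log axis; short lines are group means, and the open triangle marks a library with 0 counts. Blue points are GFP and orange points NeuroD1 libraries; the squares of NeuroD1 replicate 2 are the highest point for 17 members.

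**Figure D2:**
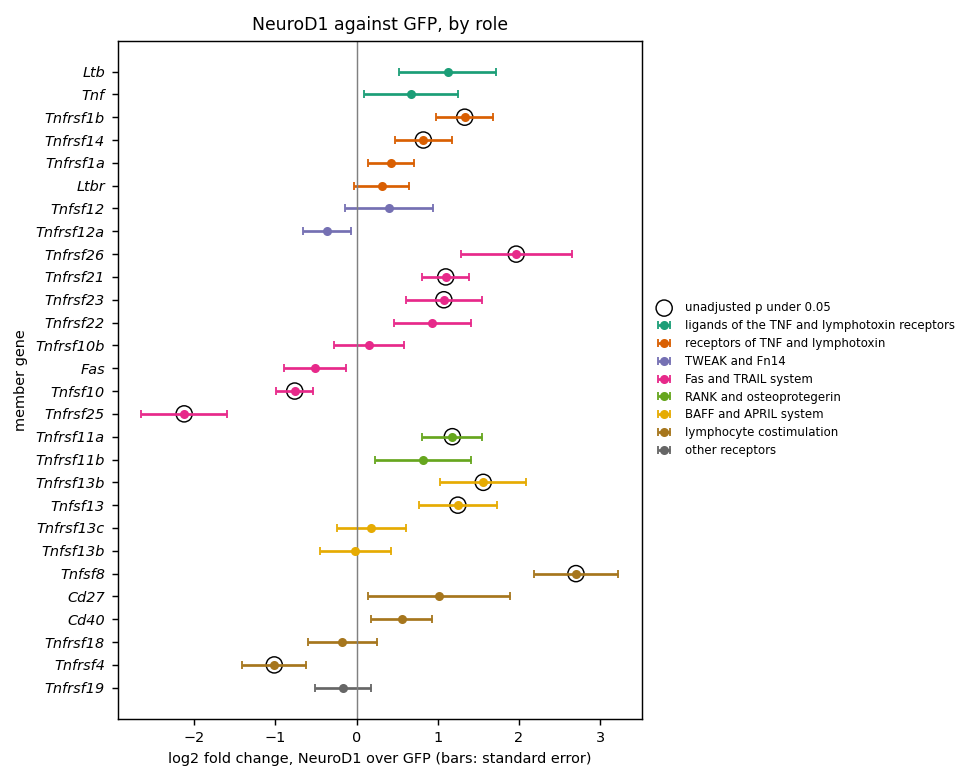
Log2 fold change of NeuroD1 over GFP with its standard error for the 28 tested members, coloured by role, with rings around those at an unadjusted edgeR p under 0.05. Of the rings, 9 lie above 0 and 3 below.

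Short stretches of promoter are shown because both NF-kB, which these receptors activate, and NeuroD1, the factor given to the animals, bind known DNA motifs. RefSeq promoters on GRCm38.p6, from 250 bases before to 50 after the gene start, were found for 31 members, 35 promoters in all. The NF-kB motif, GGG and TTCC with any 3 bases between them, searched on both strands, occurred in 3 of these 35 (8.57%) and in 5.56% of all 32851 promoters. The windows are written on the gene's strand, with the match in capitals.
Ltb, 87 bases before the start, chr17:35194410-35194439, plus strand: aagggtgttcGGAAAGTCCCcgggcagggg
Tnfrsf25, 218 bases before the start, chr4:152115706-152115735, plus strand: tgagacccagGGAAAAGCCCctggctctgg
Tnfrsf9, 43 bases before the start, chr4:150927946-150927975, plus strand: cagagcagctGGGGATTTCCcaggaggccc

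An E-box of the form CAGATG, on either strand, which NeuroD1 can bind, occurred in 9 of the 35 member promoters (25.7%) and in 17.2% of all promoters. Promoters were found for 22 of the 28 tested members, and 6 of these members had a match. Among the 12 members at an unadjusted p under 0.05, those with a match were Tnfrsf21 and Tnfrsf14. The other tested members with a match, Tnfrsf18, Cd27, Tnfsf13b and Tnfrsf13c, were not at such a p. A member without a promoter in the reference could not show a match, and how many of the 12 had one is not given. The windows of Tnfrsf21 and Tnfrsf14 follow in the same notation.
Tnfrsf21, 77 bases before the start, chr17:43016468-43016493, plus strand: gagttctttcCATCTGcacaaagagc
Tnfrsf14, 106 bases before the start, chr4:154928168-154928193, minus strand: taatgtgctcCATCTGcctctaacag
A match in letters is not a binding site, and the promoter of Tnfsf8, the member with the smallest p, held neither motif in this window.

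Tnf, the founding ligand and an early inflammatory signal of microglia and macrophages, was at 3.14, 5.60 and 4.02 CPM in GFP replicates 1, 2 and 3 and at 3.16, 13.5 and 3.68 CPM in the NeuroD1 replicates. A single library, NeuroD1 replicate 2, lay above all others, and the other NeuroD1 libraries lay within the GFP range. Its log2 fold change was 0.67 (SE 0.58, unadjusted p = 0.278, edgeR adjusted p = 0.480), and -0.30 without NeuroD1 replicate 2. Ltb, the membrane chain of lymphotoxin, was at 0.303, 1.73 and 1.19 CPM with GFP and 3.09, 1.55 and 2.24 CPM with NeuroD1, with overlapping groups (unadjusted p = 0.0948). Lta, its soluble partner, had 0 to 4 counts in any library, and Tnfsf14, a ligand of Ltbr and Tnfrsf14, had 2 to 9, so neither was tested.

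Tnfrsf1b encodes TNF receptor 2, which lacks a death domain and binds membrane TNF best. It was at 61.4, 75.8 and 69.2 CPM in the GFP replicates and at 155, 268 and 97.0 CPM in the NeuroD1 replicates. Every NeuroD1 library was above every GFP library. The means were 173 ± 87.0 against 68.8 ± 7.19 CPM (SD, n = 3 each), a 2.52-fold difference (log2 fold change 1.33, SE 0.35, unadjusted p = 0.00496, edgeR adjusted p = 0.137, DESeq2 adjusted p = 0.0108). Without NeuroD1 replicate 2 it was 1.84-fold.

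Tnfrsf1a encodes TNF receptor 1, the death domain receptor of soluble TNF. Its levels were 87.0, 93.6 and 101 CPM with GFP and 117, 178 and 82.9 CPM with NeuroD1. Here the groups overlapped, since NeuroD1 replicate 3 was the lowest library of all (1.34-fold, unadjusted p = 0.175, and 1.07-fold without NeuroD1 replicate 2). The difference between the fold changes of the 2 TNF receptors was not tested. Ltbr, the lymphotoxin beta receptor, likewise overlapped, at 36.4, 61.5 and 49.0 CPM with GFP and 50.8, 91.6 and 39.6 CPM with NeuroD1 (log2 fold change 0.31, unadjusted p = 0.384, and -0.11 without NeuroD1 replicate 2). Tnfrsf14, also called HVEM, a receptor shared by Tnfsf14 and lymphotoxin, was at 2.33, 2.53 and 1.63 CPM with GFP and 4.36, 3.87 and 3.23 CPM with NeuroD1. All its NeuroD1 values were higher (1.77-fold, unadjusted p = 0.0470), and the p was 0.05 or more in 5 of the 6 fits that left out a library.

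Tnfsf12, or TWEAK, a ligand known for roles in tissue injury and repair, was at 18.2, 40.5 and 25.6 CPM with GFP and 18.3, 72.7 and 20.4 CPM with NeuroD1. As with Tnf, NeuroD1 replicate 2 alone lay above the GFP range, and the log2 fold change of 0.40 (SE 0.54, unadjusted p = 0.482) was -0.53 without it. Its receptor Tnfrsf12a, or Fn14, which injury is known to induce, was at 8.30, 13.5 and 9.66 CPM with GFP and 9.93, 6.19 and 8.16 CPM with NeuroD1. NeuroD1 replicate 2, the library with the most Tnfsf12, had the least Tnfrsf12a (group difference unadjusted p = 0.257). In the GFP group, by contrast, replicate 2 had the most of both genes. Of the Tnfsf12 exons in GENCODE M21, 48.3% of bases also belong to the read-through gene Tnfsfm13, as do 60.0% of those of Tnfsf13, and how reads there were assigned is not stated.

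Among the death receptors and their relatives, differences went both ways. Tnfrsf21, or death receptor 6, is made by neurons and glia and is known for a part in axon pruning and death. It was at 112, 70.4 and 95.2 CPM with GFP and at 183, 267 and 145 CPM with NeuroD1, without overlap. The means of 198 ± 62.2 and 92.6 ± 21.0 CPM (SD, n = 3 each) differed 2.14-fold (log2 fold change 1.10, SE 0.29, unadjusted p = 0.00491, edgeR adjusted p = 0.137, DESeq2 adjusted p = 0.0113), and 1.78-fold without NeuroD1 replicate 2.

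Tnfrsf25, or death receptor 3, costimulates T cells when it binds Tnfsf15. It was at 3.24, 10.8 and 7.16 CPM with GFP and at 1.05, 1.35 and 2.42 CPM with NeuroD1, so all 3 NeuroD1 libraries were lower. The log2 fold change of -2.13 (SE 0.53), a 4.36-fold lower level, had an unadjusted p of 0.00342, an edgeR adjusted p of 0.136 and a DESeq2 adjusted p of 0.00738. Among the tested members its log2 fold change was the lowest. Markers of T and NK cells were, by contrast, higher with NeuroD1: their summed level was 6.47 to 19.8 CPM with GFP and 34.5 to 35.8 CPM with NeuroD1. The ligand Tnfsf15 had 0 or 1 count in each library.

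Tnfsf10, or TRAIL, a ligand that can kill cells through Tnfrsf10b, was the least scattered of the lower members. Its levels were 14.7, 13.3 and 13.1 CPM with GFP and 7.15, 8.41 and 8.70 CPM with NeuroD1. The groups were far apart relative to their spread, with means of 13.7 ± 0.835 and 8.08 ± 0.823 CPM (SD, n = 3 each), 1.70-fold lower with NeuroD1 (log2 fold change -0.76, SE 0.23, unadjusted p = 0.00965, edgeR adjusted p = 0.141, DESeq2 adjusted p = 0.0469). The receptor Tnfrsf10b, the death-inducing TRAIL receptor of mice, overlapped between groups at 2.43, 3.07 and 5.43 CPM with GFP and 4.14, 5.41 and 2.60 CPM with NeuroD1 (unadjusted p = 0.736).

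Fas, the classical death receptor, was at 5.06, 11.7 and 5.75 CPM with GFP and 5.12, 4.45 and 6.19 CPM with NeuroD1. GFP replicate 2 was the high library, and without it the log2 fold change of -0.51 (SE 0.38, unadjusted p = 0.218) was -0.04. Its ligand Fasl, carried by cytotoxic lymphocytes, had 0, 1 and 2 counts with GFP and 8, 2 and 5 with NeuroD1, too few to test.

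Tnfrsf26, Tnfrsf22 and Tnfrsf23 are rodent receptors that lie side by side on the minus strand of chromosome 7 (GRCm38, 143607659 to 143685872 in GENCODE M21). Tnfrsf22 and Tnfrsf23 are known in mice as decoys that bind TRAIL without a death domain. Tnfrsf26 was at 0.607, 1.07 and 1.30 CPM with GFP and 2.03, 7.93 and 1.79 CPM with NeuroD1, without overlap. Its 3.91-fold higher mean (log2 fold change 1.97, SE 0.68, unadjusted p = 0.0195, edgeR adjusted p = 0.157) was 1.94-fold without NeuroD1 replicate 2 (unadjusted p = 0.0942) and had an unadjusted p = 0.0697 without GFP replicate 1. Tnfrsf23 was at 2.73, 5.34 and 5.75 CPM with GFP and 9.26, 14.98 and 4.84 CPM with NeuroD1. NeuroD1 replicate 3 lay inside the GFP range (2.11-fold, unadjusted p = 0.0484), and the p was 0.05 or more in 5 of the 6 fits that left out a library. Without NeuroD1 replicate 2 the difference was 1.55-fold (unadjusted p = 0.182). Tnfrsf22 was at 0.809, 1.33 and 1.30 CPM with GFP and 1.88, 3.29 and 1.43 CPM with NeuroD1 (unadjusted p = 0.0833). The longest coding transcripts of Tnfrsf22 and Tnfrsf23 were 91.7% identical over an alignment of 1451 bases, so reads may be split between them and both levels are uncertain. No alignment to Tnfrsf26 was found for either.

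Tnfrsf11a, or RANK, drives osteoclast formation and is also expressed by macrophages and microglia. It was at 20.9, 26.9 and 27.6 CPM with GFP and 52.1, 89.1 and 29.7 CPM with NeuroD1. The groups did not overlap, although NeuroD1 replicate 3 lay close to the GFP range. A 2.26-fold difference resulted (log2 fold change 1.18, SE 0.37, unadjusted p = 0.0122, edgeR adjusted p = 0.142, DESeq2 adjusted p = 0.0407; 1.64-fold without NeuroD1 replicate 2). Osteoprotegerin, the soluble decoy encoded by Tnfrsf11b, was at 5.46, 1.07 and 1.41 CPM with GFP and 4.14, 6.19 and 3.94 CPM with NeuroD1. GFP replicate 1 alone placed the groups in overlap, and the fold change was 1.76 with it (unadjusted p = 0.203) and 3.71 without it. The shared ligand Tnfsf11, RANKL, had 1 to 12 counts per library and was not tested.

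In the BAFF and APRIL system, which supports B cells and plasma cells, the receptor Tnfrsf13b, or TACI, was at 2.023, 2.001 and 1.736 CPM with GFP and 4.82, 9.96 and 2.33 CPM with NeuroD1. All NeuroD1 values were higher, over a wide range (2.95-fold, log2 fold change 1.56, SE 0.53, unadjusted p = 0.0179, edgeR adjusted p = 0.153). Without NeuroD1 replicate 2 it was 1.87-fold with an unadjusted p of 0.0748, and without GFP replicate 3 the p was 0.0543. Tnfsf13, the ligand APRIL, was at 2.73, 1.73 and 1.41 CPM with GFP and 4.89, 6.86 and 2.33 CPM with NeuroD1; NeuroD1 replicate 3 was below GFP replicate 1 (2.37-fold, unadjusted p = 0.0313, with a p of 0.05 or more in 4 of the 6 fits that left out a library). Without NeuroD1 replicate 2 Tnfsf13 was 1.84-fold higher (unadjusted p = 0.107).

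BAFF itself, Tnfsf13b, was at 3.44, 6.54 and 4.23 CPM with GFP and 3.46, 7.44 and 3.14 CPM with NeuroD1, and its means were 4.74 ± 1.61 and 4.68 ± 2.40 CPM (SD, n = 3 each; unadjusted p = 0.973). Its receptor Tnfrsf13c stayed between 0.934 and 1.64 CPM in all 6 libraries (unadjusted p = 0.682), and the plasma cell receptor Tnfrsf17 had 2 to 10 counts. Summed markers of B and plasma cells overlapped, at 2.93 to 6.62 CPM with GFP and 4.30 to 7.06 CPM with NeuroD1, and 0 of the 1 tested marker of 7 differed at an unadjusted p under 0.05. The B cell gene Ms4a1 was at 0 in all GFP libraries and at most 0.1505 CPM with NeuroD1.

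Among ligands and receptors of lymphocyte costimulation, Tnfsf8 was the higher and Tnfrsf4 the lower with NeuroD1. Tnfsf8, the CD30 ligand of activated T cells and macrophages, was counted 4, 3 and 5 times with GFP (replicates 1, 2 and 3) but 48, 39 and 18 times with NeuroD1. In CPM these were 0.405, 0.400 and 0.543 against 3.61, 3.77 and 1.61, with no overlap. Its fitted level was 6.51-fold higher (log2 fold change 2.70, SE 0.52, unadjusted p = 0.000691, edgeR adjusted p = 0.136, DESeq2 adjusted p = 0.00403), the highest fold change among the tested members, and stayed between 5.73-fold and 8.03-fold with any 1 library left out. Tnfsf8 was over the level of the filter on low counts in 0 GFP and 3 NeuroD1 libraries. Its rank and this range are therefore not independent of that selection. Its receptor Tnfrsf8 had 2 to 14 counts per library.

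Tnfrsf4, or OX40, a costimulatory receptor of activated T cells, was at 1.92, 3.20 and 3.15 CPM with GFP and 1.28, 1.26 and 1.52 CPM with NeuroD1. All NeuroD1 libraries were lower (2.02-fold, log2 fold change -1.02, SE 0.39, unadjusted p = 0.0306), and the p was 0.05 or more in 4 of the 6 fits with a library left out. Its ligand Tnfsf4 had 1 count in all 6 libraries together. Tnfrsf18, or GITR, its neighbour on chromosome 4, was at 4.047, 2.001 and 3.581 CPM with GFP and 1.96, 3.96 and 2.69 CPM with NeuroD1, with overlapping groups (unadjusted p = 0.687). Of its exon bases, 27.2% are shared with a gene on the opposite strand, and the strand setting of the counts is not stated, so reads of the pair cannot be told apart.

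Cd40, through which T cells activate macrophages and B cells, was at 1.72, 2.53 and 2.50 CPM with GFP and 3.09, 4.25 and 2.60 CPM with NeuroD1. Though the groups did not overlap, the difference did not pass (1.47-fold, log2 fold change 0.56, SE 0.38, unadjusted p = 0.174). Cd27, a T cell receptor for Cd70, was at 0, 1.2004 and 0.434 CPM with GFP and 1.35, 0.677 and 1.08 CPM with NeuroD1 (unadjusted p = 0.278). Cd70, Cd40lg, Tnfsf18, Tnfsf9 and Tnfrsf9 had at most 14 counts in any library and were not tested.

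Tnfrsf19, or TROY, a receptor of neural precursors and astrocytes that can pair with the Nogo receptor, was at 160.4, 86.7 and 89.7 CPM with GFP and 109.9, 61.3 and 129 CPM with NeuroD1, and the groups overlapped (unadjusted p = 0.639). NeuroD1 replicate 2 was its lowest library.

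Per kilobase of exon (GENCODE M21, which may differ from the authors' gene file), the order in the GFP group was Tnfrsf1a (36.3 ± 2.73 CPM per kb), Tnfrsf19 (23.7 ± 8.81), Tnfrsf21 (22.5 ± 5.11), Ltbr (20.8 ± 5.33), Tnfsf12 (18.6 ± 7.51) and Tnfrsf1b (18.02 ± 1.882; SD, n = 3 each). The 5 after Tnfrsf1a did not differ from their neighbours in the order beyond these SDs. Nor was Tnfrsf1a first in every GFP library: in replicate 1 it was at 33.58 and Tnfrsf19 at 33.86 CPM per kb. In the NeuroD1 group Tnfrsf1a (48.6 ± 18.6 CPM per kb), Tnfrsf21 (48.3 ± 15.1) and Tnfrsf1b (45.4 ± 22.8) were at the same level within their spread. Tnf itself was at 2.59 ± 0.763 with GFP and 4.14 ± 3.57 CPM per kb with NeuroD1, and Tnfsf8 at 0.118 ± 0.0213 and 0.788 ± 0.316.

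**Figure D3:**
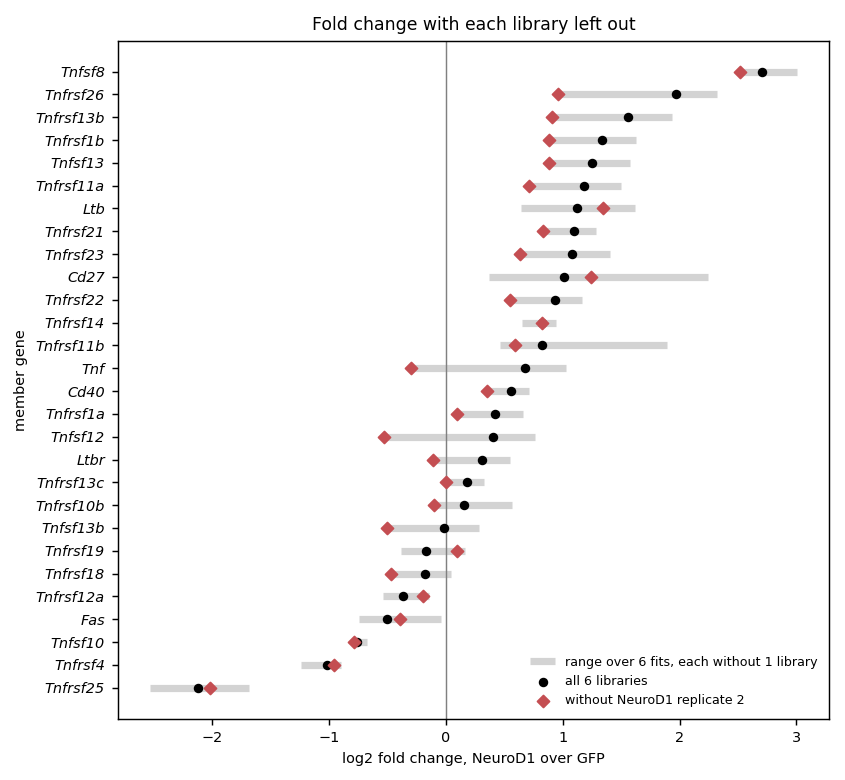
Log2 fold change of NeuroD1 over GFP for each tested member with all 6 libraries (black), its range over the 6 fits that each leave out 1 library (grey) and its value without NeuroD1 replicate 2 (red diamonds). Tnf goes from 0.67 to -0.30 and Tnfsf12 from 0.40 to -0.53 without that library. Tnfsf8, which passed the filter on low counts only through the NeuroD1 libraries, stays at 2.52 or more.

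Downstream of the receptors, 1 of 17 adapters and ubiquitin regulators was higher and 1 lower at an unadjusted p under 0.05 (5.88% each, against 12.5% and 11.5% of all tested genes). Their median log2 fold change was 0.01, against 0.02 over all tested genes. The higher one was Tnfaip3 (A20), which ends NF-kB signalling and is itself induced by it, at 24.9 ± 8.66 against 12.9 ± 1.29 CPM (SD, n = 3 each; 1.93-fold, unadjusted p = 0.0100). The lower one was Tnip2, an A20-binding protein (1.73-fold lower, unadjusted p = 0.0383), and the next gene by p was the deubiquitinase Cyld (1.56-fold higher, unadjusted p = 0.0679). Traf2, the adapter shared by most TRAF-binding receptors, had a log2 fold change of 0.01 (SE 0.24), and Tradd, the adapter of Tnfrsf1a, 0.24 (SE 0.36).

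Of the cell death machinery, 5 of 11 genes were higher (45.5%, against 12.5% of all tested genes) and 1 lower (9.09%, against 11.5%), with a median of 0.59 against 0.02. Ripk1, the kinase that joins TNF receptor 1 to survival or death, was 1.88-fold higher (49.7 ± 18.2 against 26.3 ± 2.61 CPM; unadjusted p = 0.0105). Bid, which links death receptors to mitochondria, was 1.85-fold higher (unadjusted p = 0.0114). Mlkl, the effector of necroptosis, was 2.17-fold higher (unadjusted p = 0.0268), or 1.67-fold without NeuroD1 replicate 2 (unadjusted p = 0.103), and Xiap, a caspase inhibitor, 1.61-fold (unadjusted p = 0.0492). The lower gene was Diablo, which opposes Xiap (1.496-fold lower, unadjusted p = 0.0457). Casp8 and Fadd, the first steps below the death receptors, did not pass (unadjusted p = 0.210 and 0.228). Without NeuroD1 replicate 2 or without GFP replicate 1 or NeuroD1 replicate 1, 3 death genes were higher, and without GFP replicate 2 there were 2. The share of all tested genes at such a p, in either direction, was 24.0% with all 6 libraries. It was 27.9% without GFP replicate 1 and 11.9% without GFP replicate 2.

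Kinases and NF-kB subunits had 3 of 18 genes higher (16.7%, against 12.5% of all tested genes) and 1 lower (5.56%, against 11.5%), with a median of 0.11, so the share of higher genes was near that of all genes. Rel, an NF-kB subunit of immune cells, was at 2.73, 0.534 and 1.30 CPM with GFP and 7.98, 6.48 and 4.21 CPM with NeuroD1, without overlap (3.98-fold, log2 fold change 1.99, SE 0.54, unadjusted p = 0.00564, edgeR adjusted p = 0.138, DESeq2 adjusted p = 0.0118). Ikbkg, the regulatory subunit of the kinase that frees NF-kB, was 1.41-fold higher (unadjusted p = 0.0292) and Tab1, a partner of the kinase Map3k7, 1.48-fold lower (unadjusted p = 0.0356). The third higher gene was Nfkb1 (1.43-fold, unadjusted p = 0.0471), while Rela had a log2 fold change of 0.10 (SE 0.24). Only 1 kinase or subunit gene was higher when GFP replicate 2, GFP replicate 3 or the first NeuroD1 library was left out, and 3 were lower without NeuroD1 replicate 2. Of all tested genes, 11.9% without GFP replicate 2 and 12.5% without GFP replicate 3 were at such a p in either direction, against 24.0%. Rel stayed at 3.07-fold or more with any 1 library left out.

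Among 23 genes known to be induced by NF-kB, 16 could be tested, and 5 were higher (31.2%, against 12.5% of all tested genes) and 0 lower (against 11.5%), with a median of 0.39. By groups without overlap, 2 of the 16 were higher (12.5%, against 14.2% of all tested genes) and 1 lower (6.25%, against 15.3%). The lower one was Cxcl10 (1.53-fold lower, unadjusted p = 0.0752). Ccl2, a monocyte attractant, was at 3.44, 6.67 and 6.19 CPM with GFP and 14.1, 29.9 and 6.90 CPM with NeuroD1 (3.12-fold, unadjusted p = 0.0133, DESeq2 adjusted p = 0.0322). The gelatinase gene Mmp9 was 2.22-fold higher (unadjusted p = 0.0358), or 1.87-fold without NeuroD1 replicate 2 (unadjusted p = 0.105), and Tnfaip2 2.12-fold (unadjusted p = 0.0385). Icam1 and Vcam1, adhesion molecules that TNF induces on endothelium, did not pass (unadjusted p = 0.201 and 0.350). The count of higher targets was 1 or 2 in the fits without any 1 library other than NeuroD1 replicate 3. The share of all tested genes at such a p, in either direction, was 24.0% with all 6 libraries. It was 27.9%, 11.9% and 12.5% without GFP replicates 1, 2 and 3. Without NeuroD1 replicate 2, Ccl2 was 1.95-fold and Tnfaip2 1.33-fold higher.

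Sheddases that release TNF ligands and receptors, with relatives whose symbols lie outside the naming rule, made up the fifth list; 4 of 7 tested genes were higher (57.1%, against 12.5% of all tested genes) and 0 lower (against 11.5%), with a median of 1.05. Adam10 was at 150.4, 91.6 and 103 CPM with GFP and 268, 267 and 181 CPM with NeuroD1 (2.07-fold, unadjusted p = 0.00448, DESeq2 adjusted p = 0.00962). Adam17, the enzyme that cuts TNF from the membrane, was at 67.3, 53.9 and 55.9 CPM with GFP and 128, 163 and 75.8 CPM with NeuroD1 (2.07-fold, unadjusted p = 0.00620, DESeq2 adjusted p = 0.0204). Ngfr, the low-affinity neurotrophin receptor of the same superfamily, was 3.97-fold higher (6.76 ± 4.89 against 1.67 ± 0.699 CPM; unadjusted p = 0.00916, DESeq2 adjusted p = 0.0224) and Eda2r 2.21-fold (unadjusted p = 0.0124). In each of these 4 genes every NeuroD1 library was above every GFP library, and without NeuroD1 replicate 2 Ngfr was 2.37-fold higher. The list held 4 or 5 higher genes whichever library was left out. Over the 5 lists together, 18 of 69 tested genes were higher (26.1%, against 12.5% of all tested genes) and 3 lower (4.35%, against 11.5%). After adjustment 0 passed edgeR's test, while DESeq2 called 8 higher and 0 lower, where it called 4.87% of all genes higher and 3.76% lower. Without GFP replicate 2 the 18 were 10, and without NeuroD1 replicate 1 they were 11. Without GFP replicate 2 the share of all tested genes at an unadjusted p under 0.05, in either direction, also fell, from 24.0% to 11.9%.

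**Figure D4:**
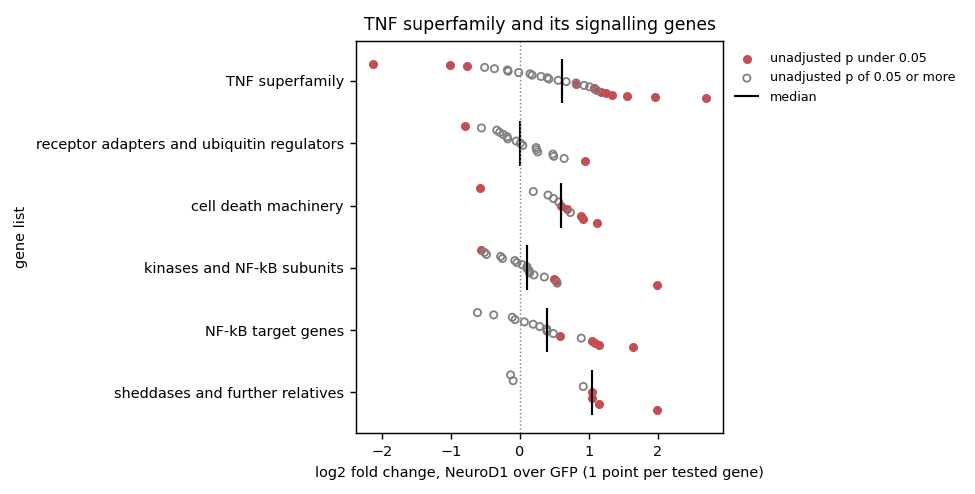
Log2 fold change of NeuroD1 over GFP for each tested gene of the TNF superfamily and of the 5 signalling lists, with filled points at an unadjusted edgeR p under 0.05 and a line at each list's median. The medians run from 0.01 for receptor adapters to 1.05 for sheddases and further relatives.

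Markers of several cell types also differed between the groups. Of all tested genes, 12.5% were higher and 11.5% lower at an unadjusted p under 0.05. Of the 8 markers listed for infiltrating myeloid cells, 6 were higher at an unadjusted p under 0.05. Their summed level was 847 to 2211 CPM with GFP and 2615 to 8131 CPM with NeuroD1. This sum was highest in NeuroD1 replicate 2, as were Tnfrsf1b, Tnfrsf11a, Tnfrsf13b and Tnfrsf26, and 66.5% of all genes higher with NeuroD1 at that p. Whether these markers came from cells that had entered the brain or from resident macrophages was not tested. Homeostatic microglia markers overlapped in their sum (2426 to 2952 CPM with GFP, 2908 to 4299 CPM with NeuroD1), and 0 of 6 were at an unadjusted p under 0.05. In the T and NK cell list 3 of 6 tested markers were higher, and in the endothelial list 6 of 7 were lower, with sums of 451 to 647 CPM with GFP and 156 to 347 CPM with NeuroD1. Fibroblast markers were higher in 6 of 6 cases, with sums of 698 to 1472 CPM with GFP and 1316 to 5588 CPM with NeuroD1, and cycling cell markers in 4 of 4, with 95.1 to 126 and 168 to 597 CPM; both sums, like the myeloid one, were highest in NeuroD1 replicate 2. All 3 markers of oligodendrocyte precursors were higher, while 4 of 6 markers of pericytes and smooth muscle, 2 of 5 of oligodendrocytes, 1 of 5 of astrocytes and 3 of 4 of choroid plexus were lower. The choroid plexus sum was 807 CPM in GFP replicate 2 and 6.17 to 131 CPM in the other libraries. Neutrophil markers overlapped, at 102 to 195 CPM with GFP and 76.6 to 132 CPM with NeuroD1, and 1 of 7 neuronal markers was higher. No marker of these lists that the table holds was at 0 in all libraries. The part of these cell types in the results above was not tested.

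**Figure D5:**
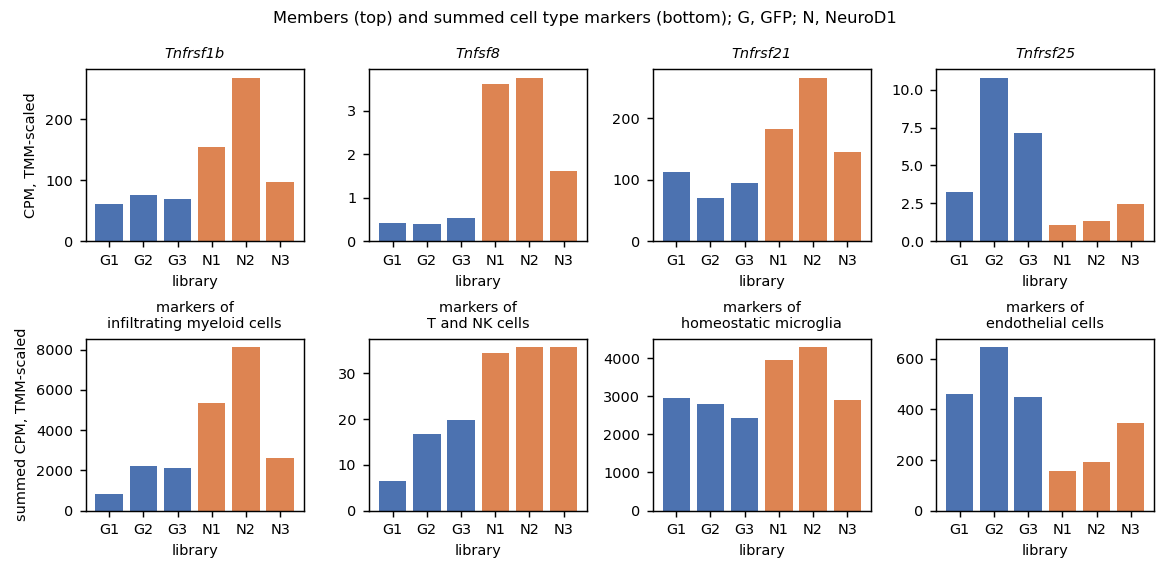
TMM-scaled CPM of 4 members (top row) and summed CPM of 4 cell type marker lists (bottom row) in each library, with GFP replicates G1 to G3 in blue and NeuroD1 replicates N1 to N3 in orange; all axes start at 0. Tnfrsf1b and the myeloid marker sum are both highest in N2 and next in N1, and Tnfrsf25 is lower in all 3 NeuroD1 libraries.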

How the data were processed

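Deposited were raw read counts per gene symbol, one column for each library. Per the file headers, featureCounts made them from an mm10 gene annotation. The submitters' processing notes list HISAT2 2.0.1, DESeq2 1.16.1 and GRCm38, with no word on what each was used for. How strand and multiply mapping reads were treated is not stated.

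Counts were tested with edgeR 4.0.16 (quasi-likelihood, TMM, treatment as the only term) in R 4.3.3. Genes were kept by filterByExpr (minimum count 10, minimum total 15), and Benjamini-Hochberg adjustment ran over every tested gene at 0.05. Levels are CPM on the TMM-scaled library size, and 1 count is worth 0.0753 to 0.133 CPM. Alternatives were DESeq2 1.42.0, limma-voom (limma 3.58.1), other scalings and filters, a replicate block and each library left out. No 2 libraries agreed within sampling noise, since the smallest chi-square per gene was 30.4, between GFP replicate 1 and NeuroD1 replicate 3.

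The members and gene lists were chosen with earlier results of these data known. Members were described if tested; of each signalling list the 3 genes with the smallest p were named, with the adapters and ligand partners of members. Other genes of these lists, Neurod1 and Ms4a1 were named after their values were seen. The values of 1 gene of the signalling lists are not reported here.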

Additional observations from a re-analysis of the deposited data

How the results depend on the processing

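With all 14852 genes tested, edgeR called 0, and also 0 at an adjusted p of 0.1, against 1355 with DESeq2 and 479 with a replicate block; leaving out 1 library gave 0 to 1. Same-numbered libraries deviated together with correlations of 0.539, 0.371 and 0.0390. The highest correlation of a GFP library with a differently numbered NeuroD1 library was 0.0288, -0.0643 and 0.129 in turn. The labels do not say that the numbers mark pairs, so the main fit used none, and a shared batch was not tested. With the block 8 of 28 members were higher and 3 lower at an unadjusted p under 0.05, and 0 passed after adjustment (smallest 0.0505). Over all tested genes the share at such a p, in either direction, was 24.0% in the main fit and 33.8% with the block. It was 23.8% with limma-voom and 27.9%, 11.9% and 12.5% without GFP replicates 1, 2 and 3. The 9 higher members were 5 with limma-voom and 4 to 11 with a library left out, and the 3 lower members 2 to 3. Non-overlapping members numbered 9 to 12 higher and 3 to 4 lower with a library left out, and 8 higher with upper quartile scaling. Groups separate more readily when a library is left out, so those counts cannot be set against the counts with all libraries. The matching shares of all genes are not given. Tnfrsf23 had an unadjusted p of 0.0556 with the block, 0.0783 with limma-voom and 0.0686 with upper quartile scaling. Over the signalling lists, 18 higher genes were 10 to 19 and 3 lower genes 0 to 6 with a library left out, and the lower genes were 1 with limma-voom and 5 with the block. The cause was not tested.

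Of 364 repeated member fits, 13 changed sign, none for a member at an unadjusted p under 0.05 and none under another scaling. With a library left out, log2 fold changes ran from -0.53 to 0.76 for Tnfsf12, -0.39 to 0.16 for Tnfrsf19 (0.09 without NeuroD1 replicate 2), -0.11 (without GFP replicate 1; -0.10 without NeuroD1 replicate 2) to 0.56 for Tnfrsf10b, -0.00015 to 0.33 for Tnfrsf13c, -0.30 to 1.03 for Tnf, -0.47 to 0.046 for Tnfrsf18, -0.11 to 0.55 for Ltbr and -0.50 to 0.28 for Tnfsf13b. The values of opposite sign for Tnfsf12, Tnf, Ltbr and Tnfrsf13c came without NeuroD1 replicate 2. In the same way Tradd ran from -0.061 (without GFP replicate 1) to 0.47, Traf2 from -0.11 (without GFP replicate 1) to 0.20, Fadd from -0.0021 to 0.76 and Rela from -0.16 to 0.24 (the lowest of these 2 without NeuroD1 replicate 2), and Traf2 was -0.077 with upper quartile scaling. Tnfsf13b was also 0.17 without NeuroD1 replicate 1, 0.21 without NeuroD1 replicate 3 and 0.011 with no filter. Members with at most 14 counts in any library could not be tested at this depth.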
